A study of Mus musculus with 8 samples.

Results

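Penk, Pdyn, Tac1, Tac2, Crh, Adcyap1, Cort and Cartpt encode neuropeptide precursors that lie outside the peptides most used to name hippocampal interneurons. They were taken by gene symbol from a table of 25834 mouse genes, and all 8 were found once. A filter on low counts was passed by 16251 genes, among them all 8, so every one entered the test. The RNA came from the hippocampus of male mice, with 1 library for each of 4 control and 4 SAP97-cKO mice. SAP97 is the scaffold protein encoded by Dlg1. SAP97-cKO mice carried floxed Dlg1 alleles and a Nestin-Cre transgene, which is active in neural progenitors and therefore recombines in neurons and in glia. Controls were littermates with Cre alone, with floxed alleles and no Cre, or with neither, and neither the genotype of each control library nor the age of these mice is given in the sources used here. Total counts were 37388177 to 37416649 in control and 37391907 to 37426572 in SAP97-cKO, since reads had been drawn down to a common depth.

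Neuropeptides are made as long precursors, sorted into dense core vesicles, and cut there by convertases at pairs of basic residues. They are released more slowly than classical transmitters and act mostly on G protein-coupled receptors, often away from the synapse. In the hippocampus, Penk and Pdyn are known from granule cells and their mossy fibres, and Penk also from interneurons. Crh and Cort are known from interneurons, and Tac1, Tac2, Adcyap1 and Cartpt from smaller sets of cells. The same genes are much more abundant in neighbouring regions such as the striatum, habenula, hypothalamus and amygdala.

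The coding sequences show how 1 precursor gives several copies of a peptide, which is why they are printed here. The opioid core (tyrosine, glycine, glycine, phenylalanine) was searched in frame by the first 2 bases of the codon of each residue, with the third base free. Penk held 7 copies in 268 codons and Pdyn held 3 in 248 codons. Of 21806 mouse coding sequences, 87 held such a run (0.399%), and only 4 held it more than once. The lines below are GRCm38, 5′ to 3′ on the coding strand (minus for both genes), with the core in capitals and flanking codons in lower case. The codon after the core is atg in met-enkephalin and its extended forms and ctg or ttg in leu-enkephalin, dynorphins and neoendorphin. The 2 codons before each core are those of lysine or arginine, a pair of basic residues of the kind at which precursors are cut. Such codons after the core need not mark a cut, since extended forms run past it.
Penk, chr4:4134337-4134348: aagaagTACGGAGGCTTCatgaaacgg
Penk, chr4:4134076-4134087: aagaggTATGGGGGCTTCatgagaagc
Penk, chr4:4133944-4133955: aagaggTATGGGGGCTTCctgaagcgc
Penk, chr4:4133851-4133862: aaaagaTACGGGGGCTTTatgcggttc
Pdyn, chr2:129688241-129688252: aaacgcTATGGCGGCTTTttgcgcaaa
Pdyn, chr2:129688133-129688144: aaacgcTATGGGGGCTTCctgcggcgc
Pdyn, chr2:129688076-129688087: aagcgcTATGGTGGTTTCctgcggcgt

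Tac1 and Tac2 share the tachykinin end (phenylalanine, any residue, glycine, leucine, methionine). It was searched in frame with the third base free, any codon in the second place, any codon with T in the middle for leucine, and ATG whole. Tac1 held it 2 times in 130 codons, once for substance P and once for neurokinin A, and Tac2 held it 1 time in 116 codons, for neurokinin B. This run was found in 258 coding sequences (1.18%), so they are less particular than the opioid core. Cort shares its core with Sst, the somatostatin precursor. Searched in frame as phenylalanine, phenylalanine, tryptophan, lysine, threonine, phenylalanine, by the first 2 bases of each codon and TGG whole, this core was held by 2 of the 21806 coding sequences (0.00917%), and those 2 were Cort and Sst. Each line has the matched codons in capitals (GRCm38, plus strand for Tac1 and Tac2, minus strand for Cort and Sst).
Tac1, chr6:7556750-7556764: cagcagTTCTTTGGATTAATGggcaag
Tac1, chr6:7559116-7559130: gattccTTTGTTGGACTAATGggcaaa
Tac2, chr10:127729131-127729145: gacttcTTTGTGGGACTTATGggcaag
Cort, chr4:149125279-149125296: aagaacTTCTTCTGGAAAACCTTCtcctcg
Sst, chr16:23889741-23889758: aagaacTTCTTCTGGAAGACATTCacatcc

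Levels are given below as CPM, the usual scaling of read counts by library size, with that size corrected by the trimmed mean (TMM). Dlg1, the targeted gene, was at 110, 122, 107 and 125 CPM in controls 1 to 4 and at 62.9, 82.0, 57.3 and 53.7 CPM in SAP97-cKO 1 to 4. The groups did not overlap, and SAP97-cKO mouse 2 had the highest whole-gene Dlg1 level among the knockouts. The paper reports a far larger fall in reads on a single exon of the targeted gene. Whole-gene counts do not separate that exon from the rest. They therefore do not show how complete the deletion was in any mouse, SAP97-cKO 2 included. The whole-gene log2 fold change of Dlg1 (SAP97-cKO minus control) was −0.86 (SE 0.12, n = 4 and 4, edgeR FDR = 0.143, exact permutation p = 0.0286). That p is the smallest that 4 against 4 libraries allow. The median log2 fold change of all tested genes was −0.01.

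None of the 8 neuropeptide genes differed between SAP97-cKO and control at the study's FDR threshold of 0.25. The same threshold was passed by 48 of 16251 genes (0.295%), with 46 lower (0.283%) and 2 higher (0.0123%). No member was at an unadjusted p under 0.05, where 11.7% of all tested genes were, and for no member did the 2 groups fail to overlap, as they did for 6.25% of genes (3.47% lower and 2.78% higher). With 8 members, a background of these sizes would give few or none, so the counts are near it. The members' log2 fold changes ran from −0.62 for Tac2 to 0.43 for Penk, with 5 below and 3 above 0 and a median of −0.05. The smallest edgeR FDR among them was 0.464. Because this is bulk tissue, fewer cells of a type and less RNA per cell cannot be told apart in any value given here.

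**Figure D1:**
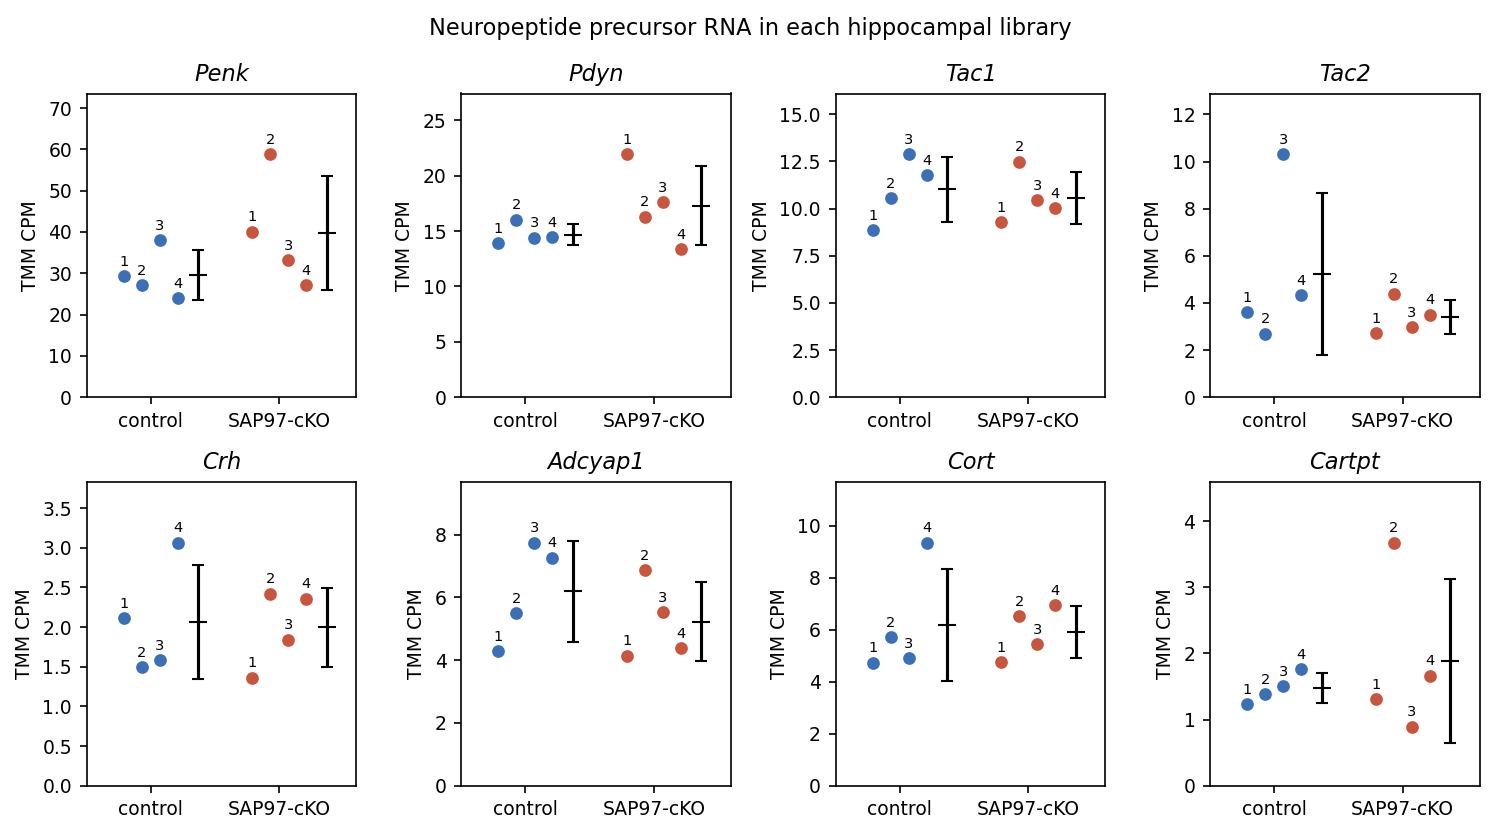
TMM CPM (vertical axes, starting at 0) of the 8 neuropeptide genes in each of 8 libraries, grouped as control and SAP97-cKO, with 1 numbered point per mouse and a bar for the group mean ± SD. Every pair of groups overlaps, and single high points stand out for Tac2 in control 3 (10.3 CPM) and for Penk (58.8 CPM) and Cartpt (3.67 CPM) in SAP97-cKO 2.

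Per kilobase of exon, Penk was the most abundant of the 8, with a mean of 21.2 CPM per kb over the 8 libraries. Cort followed at 8.92, Pdyn at 5.54, Tac1 at 3.17, Tac2 at 3.13, Crh at 1.54, Adcyap1 at 1.51 and Cartpt at 1.31 CPM per kb. Over the 8 libraries the range of Penk did not overlap that of Cort, and the range of Pdyn did not overlap that of Tac1. The ranges of Cort and Pdyn overlapped, as did those of Tac1 and Tac2, of Tac2 and Crh, of Crh and Adcyap1, and of Adcyap1 and Cartpt, so the order within those pairs is not beyond the spread. These pairs are neighbours by mean. Tac2 reached 7.48 CPM per kb in control 3, so its range also overlapped those of Pdyn and Cort. Counts over the 8 libraries ranged from 503 reads for Cartpt, with 33 to 138 per library, to 10385 for Penk, with 926 to 2210. The widest 95% intervals of the log2 fold change were those of Cartpt, Tac2 (1301 reads) and Crh (608 reads).

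Penk (chr4:4133531-4138819, minus strand) encodes proenkephalin, the source of met- and leu-enkephalin, which act on delta and mu opioid receptors. It was at 29.4, 27.1, 38.0 and 24.0 CPM in controls 1 to 4 and at 40.1, 58.8, 33.2 and 27.1 CPM in SAP97-cKO 1 to 4. SAP97-cKO 1 and 2 were above every control, whereas SAP97-cKO 3 and 4 lay among the controls. The means were 29.6 ± 5.99 and 39.8 ± 13.8 CPM (SD, n = 4 and 4), a log2 fold change of 0.43 (SE 0.22, 95% interval −0.07 to 0.92, edgeR FDR = 0.464, exact permutation p = 0.257). On the linear scale the interval ran from 0.955-fold to 1.89-fold. SAP97-cKO 2 decided much of the value: without it the log2 fold change was 0.17 (SE 0.17). Single omissions also raised it, up to 0.58. An antisense transcript, A830012C17Rik, covers 233 of the 1634 exonic bases of Penk, and had 15 reads in all 8 libraries. The strand setting of the counting is not given, so how many Penk reads this overlap touched cannot be told.

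Pdyn (chr2:129686565-129699844, minus strand) encodes prodynorphin, whose peptides act on the kappa opioid receptor. It was at 13.9, 16.0, 14.4 and 14.4 CPM in controls 1 to 4 and at 21.9, 16.3, 17.6 and 13.4 CPM in SAP97-cKO 1 to 4. Knockouts 1 to 3 were above all controls, but knockout 4 was the lowest of the 8 libraries. The log2 fold change was 0.24 (SE 0.14, 95% interval −0.06 to 0.54, edgeR FDR = 0.499, exact permutation p = 0.229). The control libraries were close together (14.7 ± 0.929 CPM) and the knockouts were less so (17.3 ± 3.56 CPM, SD, n = 4 each). Without SAP97-cKO 1 the log2 fold change was 0.11, and without SAP97-cKO 4 it was 0.35.

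The opioid receptor genes were low beside their ligands. Oprd1, the delta receptor, had the highest level per length of the opioid receptors, at 2.95 CPM per kb, while Oprk1 (kappa) was at 0.167 and Oprm1 (mu) at 0.134 CPM per kb. Oprm1 was at 0.900 ± 0.312 CPM in control and 1.26 ± 0.0955 CPM in SAP97-cKO (SD, n = 4 each), with a log2 fold change of 0.48 (SE 0.25, edgeR FDR = 0.475). Differences in Oprd1 (0.09, SE 0.11) and Oprk1 (0.26, SE 0.40) on the log2 scale were also not past the threshold.

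Tac1 (chr6:7554879-7565834, plus strand) encodes substance P and neurokinin A. It was at 8.86, 10.6, 12.9 and 11.8 CPM in controls 1 to 4 and at 9.29, 12.5, 10.4 and 10.02 CPM in SAP97-cKO 1 to 4. The groups covered nearly the same range, and the log2 fold change was −0.06 (SE 0.14, 95% interval −0.36 to 0.24, edgeR FDR = 0.873, exact permutation p = 0.743). Tac1 was among the members with the narrowest interval.

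Tac2 (chr10:127724478-127731768, plus strand) encodes neurokinin B, the ligand of the receptor Tacr3, and is strongly expressed in the medial habenula. It was at 3.61, 2.69, 10.3 and 4.33 CPM in controls 1 to 4 and at 2.72, 4.39, 2.98 and 3.498 CPM in SAP97-cKO 1 to 4. Control 3 stood apart from the other 7 libraries, which overlapped. The means were 5.24 ± 3.45 and 3.40 ± 0.737 CPM (SD, n = 4 each) and the log2 fold change was −0.62 (SE 0.37, 95% interval −1.45 to 0.20, edgeR FDR = 0.516, exact permutation p = 0.429). Without control 3 the log2 fold change was −0.05 (SE 0.22).

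In control 3, genes of the habenula and thalamus were high together with Tac2. Of the 8 genes listed for those regions, 7 were above all other libraries there, against 10.6% of all tested genes. Gpr151, a receptor gene of habenular neurons, was at 10.5 CPM against 0.731 to 1.30 CPM elsewhere, and Chrnb4, a nicotinic subunit of the same cells, was at 4.03 against 0.278 to 0.426 CPM. Pou4f1, a habenular transcription factor, was at 5.01 against 0.107 to 0.8294 CPM. The summed level of the list was 121 to 254 CPM in control and 106 to 147 CPM in SAP97-cKO, with no gene of the list at 0 in any library. All 8 had log2 fold changes below 0 (median −0.64), and 3 of them, Lef1, Pou4f1 and Chrnb4, were lower at an unadjusted p under 0.05 (7.01% of all tested genes were), while none passed the FDR threshold. With control 3 and SAP97-cKO 2 both left out, 6 of the 8 were below 0 (median −0.08). Of 8 hypothalamic genes, 2 were also above all other libraries in control 3, against 10.6% of all tested genes. They were Hdc at 5.95 CPM and Otp, which was too low to be tested, at 1.12 CPM. The part of habenular, thalamic or hypothalamic tissue in the Tac2 value was not tested. Without control 3, the Tac2 difference is close to 0, as given above.

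**Figure D2:**
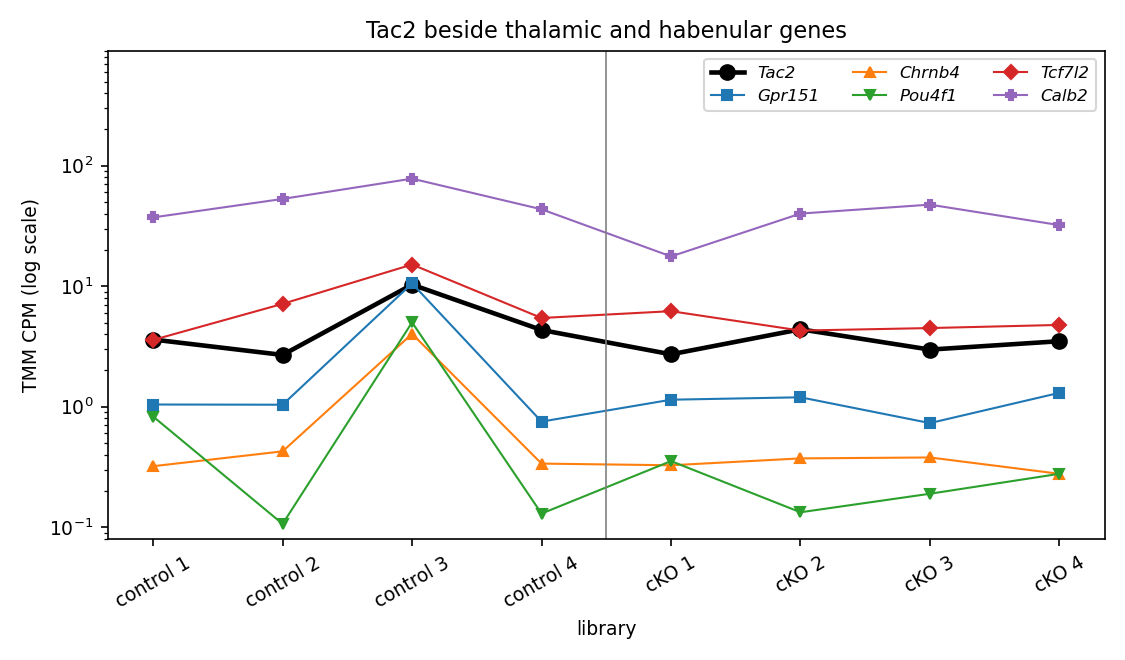
TMM CPM on a log axis of Tac2 and 5 genes of the thalamus and habenula in each of the 8 libraries, with lines joining the points of 1 gene. All 6 genes peak in control 3, where Tac2 is at 10.3 CPM and Gpr151 at 10.5 CPM.

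The tachykinin receptor genes were near the low end of what could be tested. Tacr1, the substance P receptor, was at 2.09 ± 1.15 CPM in control and 2.26 ± 0.791 CPM in SAP97-cKO (SD, n = 4 each), with a log2 fold change of 0.11 (SE 0.36). Tacr3 was at 2.61 ± 1.77 and 3.23 ± 1.30 CPM, with a log2 fold change of 0.30 (SE 0.48). Neither passed the threshold. Tacr2, the neurokinin A receptor, had 36 reads over the 8 libraries and was not tested.

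Crh (chr3:19693401-19695396, minus strand) encodes corticotropin-releasing hormone, which hippocampal interneurons release during stress. It was at 2.11, 1.49, 1.58 and 3.06 CPM in controls 1 to 4 and at 1.36, 2.42, 1.84 and 2.36 CPM in SAP97-cKO 1 to 4. The 2 groups overlapped almost completely. The log2 fold change was −0.05 (SE 0.27, 95% interval −0.65 to 0.55, edgeR FDR = 0.955, exact permutation p = 0.943).

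Crhbp, the secreted protein that binds CRH, was far above its ligand per length, at 20.4 CPM per kb. It was at 38.1 ± 3.46 CPM in control and 35.4 ± 3.56 CPM in SAP97-cKO (SD, n = 4 each), with a log2 fold change of −0.10 (SE 0.09). The main CRH receptor gene, Crhr1, was at 4.32 CPM per kb and had a log2 fold change of −0.09 (SE 0.19). Crhr2 was at 0.390 CPM per kb, and its log2 fold change was −0.54 (SE 0.45). None of the 3 passed the threshold.

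Adcyap1 (chr17:93199017-93206537, plus strand) encodes PACAP, a peptide that raises cyclic AMP through its receptor PAC1. It was at 4.28, 5.49, 7.74 and 7.27 CPM in controls 1 to 4 and at 4.14, 6.87, 5.53 and 4.39 CPM in SAP97-cKO 1 to 4. Controls 3 and 4 were the highest and SAP97-cKO 1 the lowest, with the rest mixed. The log2 fold change was −0.24 (SE 0.22, 95% interval −0.73 to 0.24, edgeR FDR = 0.648, exact permutation p = 0.343).

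Adcyap1r1, the PAC1 gene, was the most abundant receptor gene examined, at 36.2 CPM per kb. It was at 229 ± 7.54 CPM in control and 249 ± 12.9 CPM in SAP97-cKO (SD, n = 4 each), with a log2 fold change of 0.12 (SE 0.06, edgeR FDR = 0.468). Vipr1, which binds PACAP and VIP, was at 13.3 ± 2.37 and 18.3 ± 1.33 CPM, a log2 fold change of 0.45 (SE 0.12, unadjusted p = 0.00412, edgeR FDR = 0.317). The groups overlapped by a narrow margin, with the highest control at 16.6 and the lowest SAP97-cKO at 16.5 CPM. Vipr2 was at 0.202 CPM per kb and had a log2 fold change of 0.14 (SE 0.47).

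Cort (chr4:149125034-149126763, minus strand) encodes cortistatin, which binds the somatostatin receptors and is known from interneurons. It was at 4.74, 5.70, 4.91 and 9.34 CPM in controls 1 to 4 and at 4.74, 6.52, 5.45 and 6.94 CPM in SAP97-cKO 1 to 4. In both groups the mouse numbered 4 was highest, and the labels do not say whether the numbers pair animals. Control 4, which was the highest control for Crh too, was the highest of the 8 libraries for 22.9% and the lowest for 23.7% of all tested genes, more than any other library. Without it the log2 fold changes of Cort and Crh were both 0.21. The log2 fold change was −0.06 (SE 0.22, 95% interval −0.56 to 0.43, edgeR FDR = 0.923, exact permutation p = 0.914).

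Among the somatostatin receptor genes, Sstr3, a receptor of neuronal cilia, was at 31.4 ± 3.79 CPM in control and 39.4 ± 3.66 CPM in SAP97-cKO (SD, n = 4 each). Its log2 fold change was 0.33 (SE 0.10, unadjusted p = 0.00774, edgeR FDR = 0.341). Sstr1 (0.53, SE 0.29), Sstr2 (0.38, SE 0.22) and Sstr4 (0.25, SE 0.18) also had log2 fold changes above 0 and were not past either threshold. Sstr2 was at 20.2 CPM in SAP97-cKO 2 and at 9.01 to 11.2 CPM in the other 7 libraries. Sstr5 had 91 reads in all and was not tested.

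Of the 17 genes listed as receptors or binding proteins of the members, 15 were tested and 0 passed the FDR threshold. At an unadjusted p under 0.05, 2 were higher, Vipr1 and Sstr3, and 0 were lower, against 4.73% of all tested genes higher and 7.01% lower. The log2 fold changes were above 0 for 12 of 15 genes (median 0.25), whereas 47.2% of all tested genes were above 0. The count of 12 was the same with no scaling and with DESeq2 size factors, and was 11 with control 3 and SAP97-cKO 2 both left out. The summed level of the list was 359 to 399 CPM in control and 410 to 433 CPM in SAP97-cKO, and most of that sum was Adcyap1r1.

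Cartpt (chr13:99898489-99901091, minus strand) encodes the CART peptides, first known as transcripts induced by cocaine and amphetamine. It was at 1.23, 1.39, 1.51 and 1.76 CPM in controls 1 to 4 and at 1.31, 3.67, 0.894 and 1.67 CPM in SAP97-cKO 1 to 4. SAP97-cKO 2 was above all others and SAP97-cKO 3 below all others. The log2 fold change was 0.36 (SE 0.38, 95% interval −0.49 to 1.20, edgeR FDR = 0.703, exact permutation p = 0.771). It was −0.19 (SE 0.26) without SAP97-cKO 2, so its sign rests on 1 library.

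**Figure D3:**
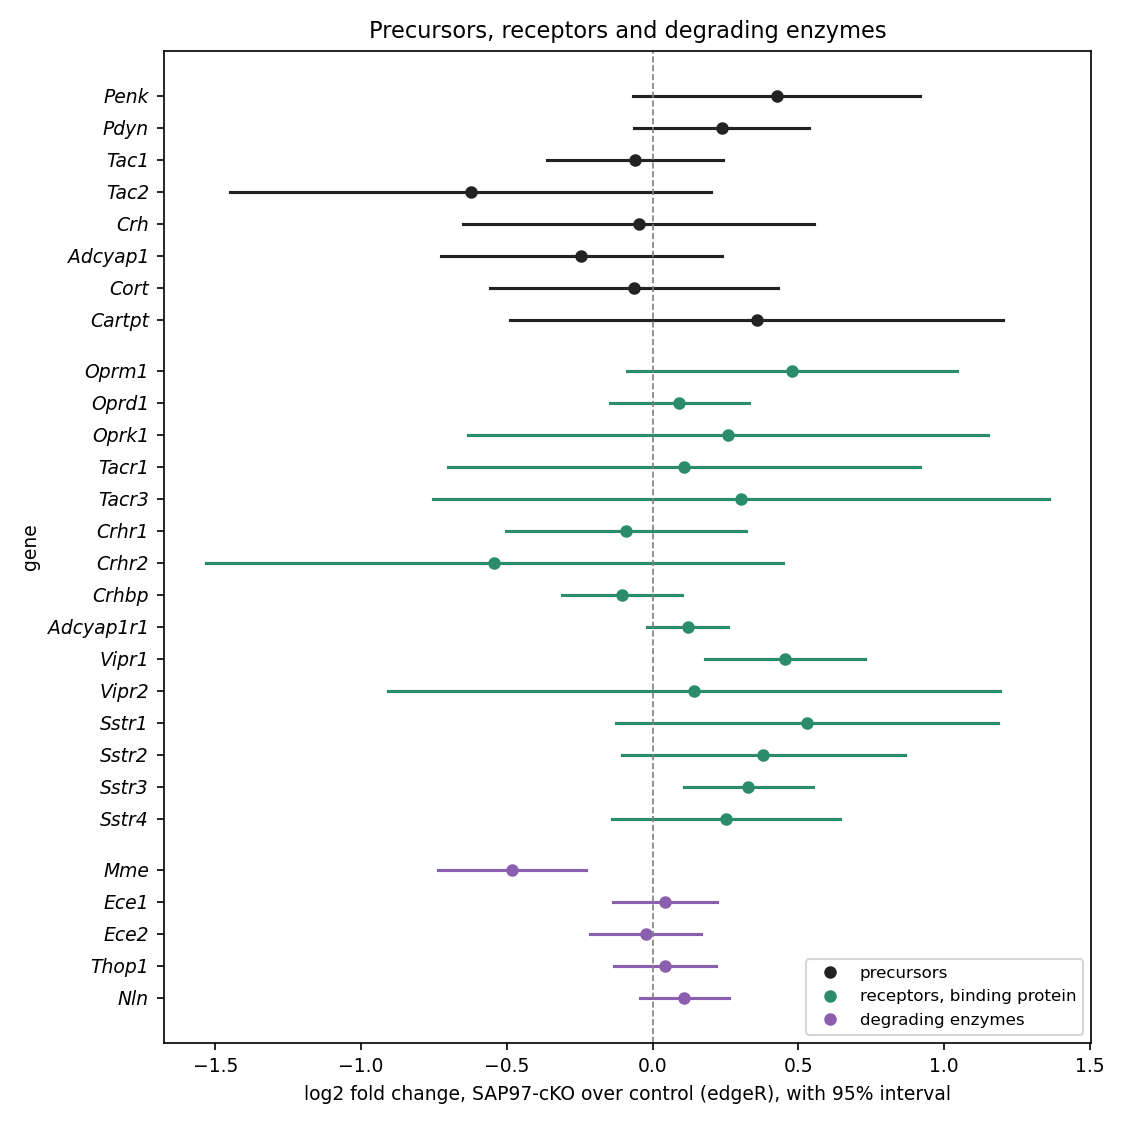
Log2 fold change (SAP97-cKO minus control, horizontal axis) of the 8 neuropeptide genes, of the 15 tested genes of their receptors and binding protein and of 5 peptide-degrading enzymes, with points for the estimate and bars for the 95% interval of the edgeR fit. All 8 intervals of the peptide genes cross 0, and only those of Vipr1 (0.45), Sstr3 (0.33) and Mme (−0.48) do not.

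SAP97-cKO 2, the highest library for Penk and Cartpt, also differed from the rest in other gene groups. Of 12 activity-induced genes, 10 were above all other libraries there, against 12.8% of all tested genes, with Fos at 21.2 CPM against 5.42 to 14.3 and Egr1 at 132 CPM against 73.5 to 86.0. Of 7 striatal genes, 4 were above all others (same 12.8% background), with Drd1, a dopamine receptor gene, at 11.3 CPM against 3.32 to 5.92 and Adora2a, an adenosine receptor gene, at 3.43 CPM against 0.833 to 1.84. Of 7 dentate granule cell genes, 6 were below all others, against 11.7% of all tested genes, with Prox1, a granule cell transcription factor, at 65.1 CPM against 90.8 to 173. Penk there was 2.00 times, and Cartpt 2.65 times, the median of the other 7 libraries.

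These lists overlapped between the groups. Summed activity-induced genes were at 309 to 415 CPM in control and 328 to 566 CPM in SAP97-cKO, and all 12 had log2 fold changes above 0 (median 0.28), with none at an unadjusted p under 0.05. With control 3 and SAP97-cKO 2 both left out, 8 of the 12 were above 0 (median 0.10). Summed striatal genes were at 79.9 to 116 and 71.5 to 122 CPM, with Rgs9, a regulator of G protein signalling, higher at an unadjusted p under 0.05 (log2 fold change 0.29, edgeR FDR = 0.376), and summed dentate genes at 450 to 562 and 326 to 613 CPM. No gene of these 3 lists was at 0 in any library. The part of neuronal activity, of striatal tissue or of the share of granule cells in the Penk and Cartpt values was not tested.

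**Figure D4:**
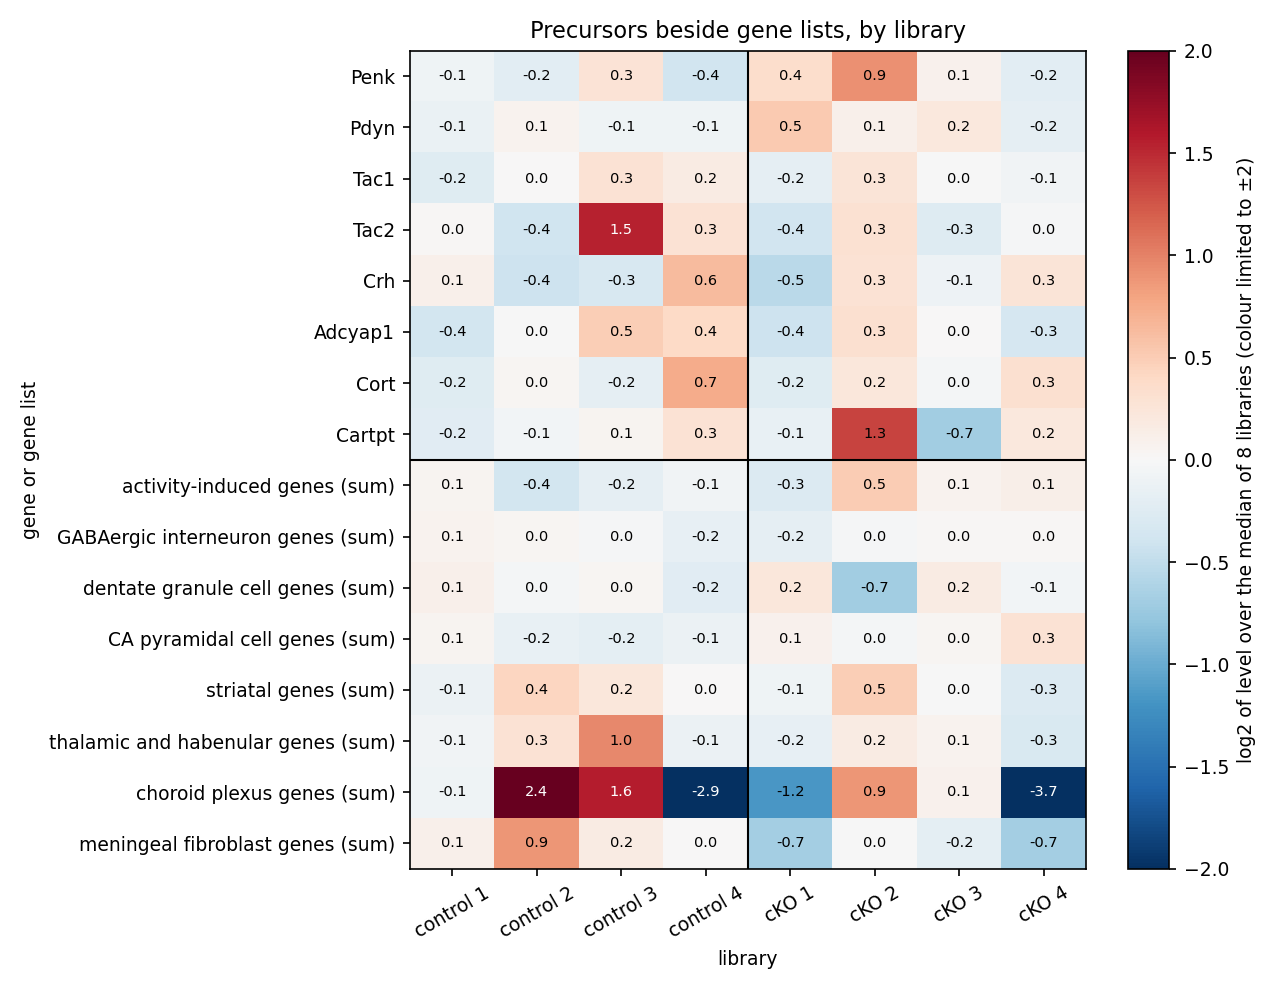
Each cell is the log2 of the CPM in 1 library (columns) over the median of the 8 libraries, with the 8 neuropeptide genes in the upper rows and the summed CPM of 8 gene lists in the lower rows, and colours limited to ±2. Control 3 is high for Tac2 (1.54) and for the thalamic and habenular genes (0.96), and SAP97-cKO 2 is high for Penk (0.91), Cartpt (1.35) and the striatal (0.50) and activity-induced genes (0.51) and low for the dentate genes (−0.69).

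The spread between mice was itself uneven among the members. For each gene the edgeR coefficient of biological variation was set against that of the fitted trend at the same level. The ratio was 1.88 for Penk and 1.76 for Tac2, above 97.8% and 97.2% of all tested genes. It was 1.39 for Cartpt, 1.20 for Cort, 1.15 for Adcyap1, 1.05 for Crh, 1.00 for Pdyn and 0.893 for Tac1. In that order these were above 92.7%, 86.5%, 84.2%, 77.5%, 72.9% and 59% of all tested genes. The ratios of all 8 members were thus above those of most tested genes, and those of Penk and Tac2 were the highest. SAP97-cKO 2 was the highest of its group for 6 of the 8 members (all but Pdyn and Cort), and control 3 was the highest of its group for 4. Each library in a group of 4 leads for a sizeable share of genes by position alone. The share of all tested genes for this rank within a group was not computed, so these counts have no background beside them. Over all 8 libraries, SAP97-cKO 2 was the highest for 2 members and control 3 for 3. As the highest of all 8 libraries, and not within a group, they led for 12.8% and 10.6% of all tested genes.

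Tac1 and Adcyap1 varied together across mice. After subtracting each group's mean, the correlation of their log2 levels was 0.97 (Spearman's rho 1.00, 8 libraries), and 0.95 without the 2 libraries farthest from the median of Tac1. It was the highest of the members' pairs, followed by Crh and Cort at 0.82 (0.58 without the 2 libraries farthest from the median of Crh) and Tac1 and Tac2 at 0.71 (0.76 likewise without 2 libraries). The pairs share libraries and their depth, so these values are a description without a test.

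Over the 8 libraries, the genes most like each member in log2 CPM were found among all tested genes by Pearson's r. For Tac2 they were Wif1 (r = 0.98), Slc5a7 (0.96) and Gm19461 (0.95). Slc5a7 is the choline transporter of cholinergic neurons and was at 10.4 CPM in control 3 and 0.773 to 1.89 CPM elsewhere. For Tac1 they were Tmem132c (0.96), Adcyap1 (0.96) and Abhd15 (0.95), and for Adcyap1 Abhd15 (0.98), Tmem132c (0.98) and Tspan4 (0.97), so Tmem132c and Abhd15 were in both sets. For Penk they were Fndc9 (0.95), Magi1 (0.95) and Limk2 (0.95), for Pdyn Ppox (0.95), Taz (0.94) and Pou3f2 (0.94), and for Cartpt Cxxc4 (0.97), Dnajc10 (0.96) and Gng4 (0.95). For Crh they were Ensa (0.99), Rspo3 (0.99) and Eid2 (0.98), and for Cort Acp1 (0.99), Pex16 (0.98) and Mrps33 (0.98). With 8 libraries and 16251 genes, values this high are the top of a long list, so they rank genes and carry no p.

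Tac1 and Adcyap1 are known targets of cyclic AMP signalling, so the half-site of the cAMP response element was searched in the promoters as TGACG or its reverse complement CGTCA, on both strands. RefSeq promoters (GRCm38.p6, 250 bases before to 50 after the start) were present for 6 of the 8 members. Penk and Crh had none in the set used, so they were not searched. The half-site was in 5 of the 8 promoters present, belonging to Tac1, Adcyap1, Cort and Cartpt, and in 20.8% of all 32851 promoters. The 2 promoters of Adcyap1 overlap and hold the same site. Cartpt held both orientations overlapping as 1 palindrome, which counts as 2 matches, and 5.01% of promoters had 2 or more. A match is only a run of letters, and none was found in the windows of Pdyn and Tac2. Each line gives the half-site in capitals with 9 bases on each side, on the strand of the gene.
Tac1, chr6:7554864-7554868: ctaaaattgCGTCAtttcgaaca
Tac1, chr6:7555018-7555022: ctacaggctCGTCAcgcctgaga
Adcyap1, chr17:93198926-93198930: ctaggatgcTGACGtcttttact
Cort, chr4:149126777-149126781: cggcttgtgCGTCAccgcgtgag
Cartpt, chr13:99900788-99900795: ggcgggcatTGACGTCAaacggcagc

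The genes that process, store and degrade peptides were examined beside the precursors. Of 14 genes for convertases, other processing enzymes and dense core vesicle proteins, 14 were tested and 0 passed the FDR threshold or an unadjusted p under 0.05. Of these, 10 were above and 4 below 0 (median log2 fold change 0.07). The smallest p was that of Qpct, which cyclises the amino end of peptides, at 16.7 ± 3.65 CPM in control and 13.6 ± 1.12 CPM in SAP97-cKO (SD, n = 4 each), with a log2 fold change of −0.30 (SE 0.14, edgeR FDR = 0.435).

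Of 5 peptide-degrading enzymes, 0 passed the FDR threshold and 1, Mme, was lower at an unadjusted p under 0.05, as were 7.01% of all tested genes. Mme encodes neprilysin, which cleaves enkephalins and tachykinins. It was at 8.75 to 11.4 CPM in control and 6.94 to 7.37 CPM in SAP97-cKO, so the groups did not overlap, as for 3.47% of all tested genes in that direction. Its log2 fold change was −0.48 (SE 0.11, unadjusted p = 0.00168, edgeR FDR = 0.294, exact permutation p = 0.0286). Ece1, Ece2, Thop1 and Nln had log2 fold changes between −0.02 and 0.11.

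Other peptide precursors gave a like picture. Of 14 listed, 12 were tested and 0 passed the FDR threshold, while Gal, the galanin precursor, was lower at an unadjusted p under 0.05, 1 of 12 against 7.01% of all tested genes. Gal was at 0.947 ± 0.420 CPM in control and 0.407 ± 0.184 CPM in SAP97-cKO (SD, n = 4 each), with a log2 fold change of −1.21 (SE 0.40, unadjusted p = 0.0130, edgeR FDR = 0.350). Sst had a log2 fold change of −0.02 (SE 0.15), Npy of 0.07 (SE 0.13) and Cck of 0.09 (SE 0.10). Below 0 were 8 of the 12 (median −0.12). Ucn had 12 reads and Tac4 had 2, and neither was tested.

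The markers of the labelled tissue were present in every library. Of the 9 GABAergic interneuron genes, 5 were above and 4 below 0 (median 0.01), with Pvalb at a log2 fold change of −0.56 (unadjusted p = 0.0141, edgeR FDR = 0.353). Pvalb was at 79.0 CPM in control 3 and 29.4 to 54.7 CPM elsewhere, and its log2 fold change without that library was −0.33. Summed levels of the list were 750 to 885 CPM in control and 747 to 855 CPM in SAP97-cKO. Summed CA pyramidal cell genes were at 837 to 995 and 930 to 1166 CPM, with 7 of 8 log2 fold changes above 0 and Wfs1, a CA1 marker, higher at an unadjusted p under 0.05 (0.34, edgeR FDR = 0.347). Of 8 hypothalamic genes only Oxt, Avp and Hdc were tested. The list summed to 2.70 to 8.83 CPM in control, with control 3 highest, and 3.28 to 5.38 CPM in SAP97-cKO. Choroid plexus genes ranged from 172 to 6803 CPM in control and 98.4 to 2337 CPM in SAP97-cKO, all 8 below 0 without passing the threshold. Of 10 meningeal fibroblast genes, 6 were lower past the FDR threshold (0.283% of all tested genes were), among them Ogn (log2 fold change −1.32), Col1a2 (−1.01) and Slc22a6 (−1.58), while Dcn was at −0.0076. Several genes of this list, these 3 included, are in the paper's own list of changed genes from the same libraries. The list was drawn up with such results known, so the count of 6 is not independent of that choice. Set beside the share of all genes, it is no test of enrichment. The 10 meningeal genes summed to 254 to 465 and 157 to 254 CPM. Their part in the neuropeptide values was not tested.

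Leaving out each library in turn kept Penk and Pdyn above 0 and Tac2 and Adcyap1 below 0. Penk ranged from 0.17 to 0.58 and Pdyn from 0.11 to 0.35 on the log2 scale. Tac2 ranged from −0.84 to −0.05 and Adcyap1 from −0.40 to −0.11. Tac1, Crh, Cort and Cartpt took both signs. In no case did a member pass the FDR threshold.

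**Figure D5:**
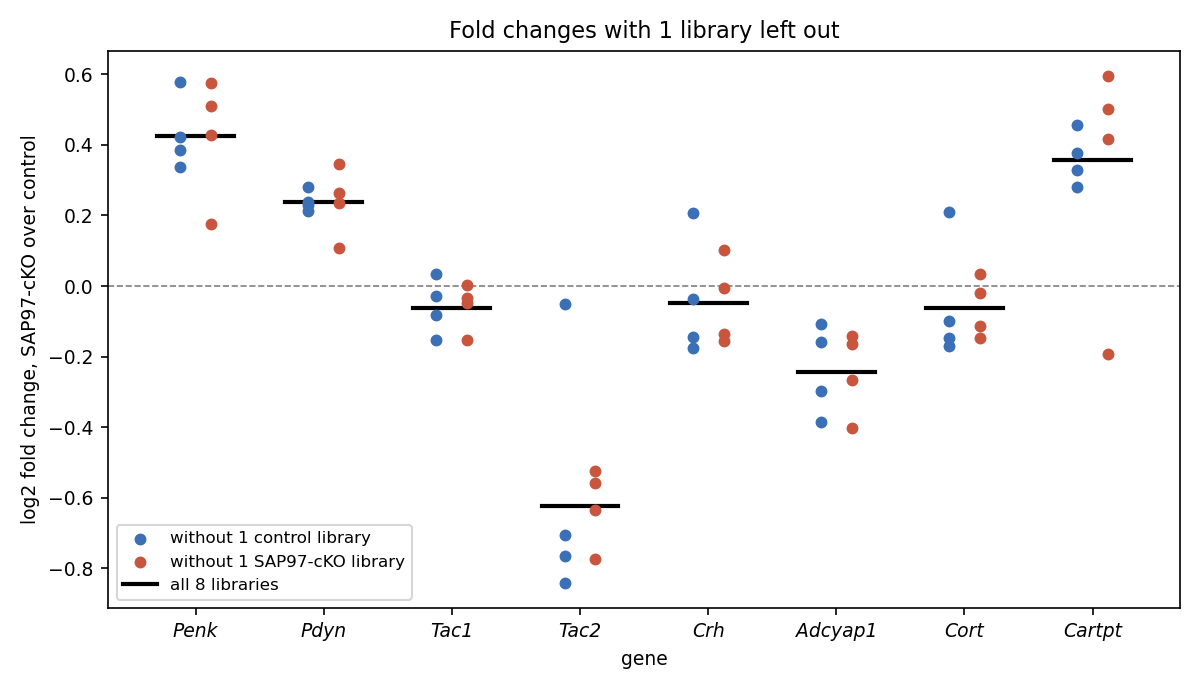
Log2 fold change (SAP97-cKO minus control, vertical axis) of each neuropeptide gene, with a black line for all 8 libraries, blue points with 1 control left out and red points with 1 SAP97-cKO library left out. Tac2 moves from −0.62 to −0.05 without control 3, and Penk from 0.43 to 0.17 without SAP97-cKO 2.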

How the data were processed

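Gene counts were deposited as whole numbers. The authors aligned reads with STAR 2.5.3a to mm10 (GRCm38.p5), removed ribosomal and mitochondrial reads with PORT, drew libraries down to a common depth and counted Ensembl genes, with a strand setting not given in the sources used here. Deposited columns of fold changes and p-values were not used. Here edgeR 4.0.16 (R 4.3.3) tested all 8 libraries with filterByExpr (minimum count 10, total 15), TMM, the quasi-likelihood test and Benjamini-Hochberg adjustment (FDR threshold 0.25). SE is the size of the log2 fold change divided by the square root of F. Exact two-sided permutation tests over 70 assignments used log2 CPM. The script was tested on simulated counts. Each library came from 1 mouse. The common coefficient of biological variation was 0.152, and at the lowest counts the counting error adds to it by a like amount. Exon lengths, coordinates and coding sequences are from GENCODE M21 (GRCm38), which matched 25696 of 25834 identifiers.

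The members and gene lists were chosen with earlier results of these data known, and 1 gene of the striatal list is not reported here. Named genes were the members, Dlg1, the members' receptors, the genes of each list past FDR or at an unadjusted p under 0.05 (else the smallest p, and at most 3 genes of a cell type or region list, whose most abundant gene the rule also allowed but is not named) and the 3 genes most like each member (log2 of CPM + 0.1). Genes that stood out in control 3 or SAP97-cKO 2, and Ece1, Ece2, Thop1, Nln, Sst, Npy, Cck and Dcn, were named after their values were seen. Alternatives were limma-voom (limma 3.58.1), DESeq2 1.42.0, its size factors in edgeR, no scaling, no filter, 10 counts in every library, a replicate block, FDR 0.05, each library left out and, chosen after seeing the data, control 3 and SAP97-cKO 2 both left out.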

Additional observations from a re-analysis of the deposited data

Results flagged for a closer look

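For 87 genes, the highest or lowest of the 4 libraries of each group was set against the other 3 by Dixon's gap ratio. Of 174 gene and group combinations, 13 had a gap above the 95% critical value, and none of these 13 was of a neuropeptide gene. Chance gives about 1 in 20 for independent genes, but genes vary together within a library. All tested thalamic and habenular, activity-induced and striatal genes were looked at, but only a few genes of the other cell type or region lists. The count of 13 is therefore a description and not a test against chance. Values are CPM.

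In control 3, the habenular genes Gpr151 (10.5), Chrnb4 (4.03) and Pou4f1 (5.01) were far above the other controls. Tac2 was highest in the same library.

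In SAP97-cKO 2, the striatal gene Drd1 (11.3), the activity-induced gene Egr2 (4.77) and the receptor gene Sstr2 (20.2) were far above the other knockouts. Rarb, another striatal gene, was at 7.72 against 5.42 to 5.80 in them. Penk and Cartpt were highest in the same library.

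In control 4, Qpct (22.2), the neurotensin precursor gene Nts (12.5) and Pcsk1n (516), which encodes a convertase inhibitor, were high, and Pcsk1n was also high in SAP97-cKO 4 (491). In SAP97-cKO 1, Tacr3 (1.28) and Chga (111), the chromogranin A gene, were low.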

How the results depend on the processing

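No neuropeptide gene passed the FDR threshold of 0.25 under any alternative run. At an unadjusted p under 0.05, Penk was the 1 member found with DESeq2, with no filter, and with control 3 and SAP97-cKO 2 both left out (log2 fold change 0.33). With each library left out there were 0 to 2: Tac2 without control 2, Penk without control 3, and Penk and Pdyn without SAP97-cKO 4. With each library left out, signs turned for Tac1 (range −0.15 to 0.035 on the log2 scale, 0.035 without control 3, 0.00203 without SAP97-cKO 1), Crh (−0.17 to 0.21, 0.21 without control 4, 0.10 without SAP97-cKO 1), Cort (−0.17 to 0.21, 0.21 and 0.034 without the same libraries) and Cartpt (−0.19 to 0.59, −0.19 without SAP97-cKO 2). With control 3 and SAP97-cKO 2 both left out, Cartpt was at −0.16, Crh at −0.25 and Cort at −0.19. Over all genes, 48 passed in the reported fit, 1033 with DESeq2, 95 with no scaling, 104 with no filter, 0 at FDR under 0.05 (1907 at an unadjusted p under 0.05), and 0 to 1675 with each library left out. The count was 0 without control 2, SAP97-cKO 3 or SAP97-cKO 4 (1403, 1259 and 1167 at an unadjusted p under 0.05), 1675 without control 1 and 711 without SAP97-cKO 1, and Dlg1 had an edgeR FDR of 0.424, 0.524 and 0.346 in the first 3 of these. The split of higher and lower genes also moved, with 47.2% of genes above 0 under TMM and 36.8% with no scaling (median log2 fold change −0.06). The cause was not tested.

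The labels do not say whether the replicate numbers pair the mice. The correlations of same-numbered libraries were −0.07, 0.20, 0.09 and 0.26. Those of a control and a knockout with unlike numbers ran from −0.38 to 0.27, so these values do not settle it. A fit with the number as a replicate block gave 256 genes past the threshold (234 lower) and 0 members. Mme, Vipr1 and Sstr3 passed the threshold in 5, 4 and 3 of the 16 alternative fits. They passed with DESeq2 (FDR = 0.0317, 0.0551 and 0.115) and had an FDR of 0.695 without SAP97-cKO 4. Lef1, Wfs1, Pvalb, Gal and Rgs9 also passed with DESeq2 (FDR = 0.0994, 0.124, 0.134, 0.183 and 0.236). Out of the 16 fits they passed in 3, 2, 3, 1 and 1. Chrnb4 passed in 1, without control 1 (edgeR FDR = 0.237). These 6 too had a highest FDR of at least 0.695 over the alternatives. Crh, Cartpt, Oprm1, Oprk1, Vipr2 and Gal had few reads. For Crh and Cartpt the mice also varied widely, with coefficients of biological variation of 0.268 and 0.372. Changes of a size inside the intervals given are not excluded here.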
